A study of Mus musculus with 8 samples.

Results

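Sarcomere genes of heart and skeletal muscle were examined in cultured smooth muscle cells of the mouse aorta. The set comprised 40 genes that encode the striated contractile apparatus, and its probes were those whose gene name in the array files was one of these 40. This gave 73 probes of 39 genes out of 41174 probes on the array. Mybpc1 had no probe under that name. 1 further probe, named 8030451F13Rik in the files and assigned to Mybpc1 through its accession, was above background on 0 of the 8 arrays and was not counted.

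In striated muscle, thin filaments of sarcomeric actin carry the troponin complex, thick filaments consist of sarcomeric myosin heavy and light chains, and titin spans from the Z-disc to the M-line. Calcium released from the sarcoplasmic reticulum binds troponin C, which lets myosin pull on actin. Smooth muscle has no sarcomeres and contracts with its own actin and myosin isoforms, controlled by phosphorylation of a light chain.

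RNA came from primary vascular smooth muscle cultures of C57BL/6 mouse aortas, kept in DMEM with heat-inactivated fetal bovine serum. Cultures of the AngII+CsA group received 1 µM angiotensin II together with 200 ng/ml cyclosporin A, an inhibitor of the phosphatase calcineurin (4 independent cultures, 4 arrays). The AngII group had the same dose of angiotensin II, a peptide that contracts arteries, without cyclosporin (4 independent cultures, 4 arrays). All cultures thus received angiotensin, cells without it were not analysed here, and passage number and the time of treatment are not given in the sources used here. Each level below is the log2 of a probe's processed signal relative to the 75th percentile of its array, so a value of 0 equals that percentile. Levels of single probes are compared between arrays and not with those of other probes.

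Arrays with the same culture number, 1 of each group, shared a slide and a scan. Between 42.8% and 51.7% of the 43379 spots of an array were well above background, and 0 spots were saturated. Smooth muscle markers were present (9 of 10 had a detected probe, one above background on 4 or more arrays), as were 7 of 10 skeletal myogenic, 8 of 10 cardiac, 6 of 8 adventitial fibroblast, 4 of 9 endothelial, 2 of 6 macrophage and 2 of 5 adipocyte markers. By the same rule, 14675 of the 27962 gene names on the array had a detected probe. The endothelial markers Pecam1, Cdh5 and Tie1, the myogenic marker Myf5 and the cardiac marker Pln were above background on 0 arrays. So were Cd34 of the fibroblast markers, Emr1 and Itgam of the macrophage markers and Lep of the adipocyte markers. In RNA of a whole culture, fewer cells of a type and less RNA per cell cannot be told apart.

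The probes on which the results turn are given first, 5′ to 3′ as the array files list them, with the mm7 position from those files. Whether a probe lies in an exon or a UTR is not stated, since no gene models of mm7 were used here. The 3 probes whose mean over both cultures numbered 1 lay farthest below that of the other 6 belong to the cardiac actin gene Actc1 (chr2:113789115-113790038, minus strand), the skeletal actin gene Acta1 (chr8:122479438-122479497, minus strand) and the cardiac troponin T gene Tnnt2 (chr1:135737607-135737919, plus strand). A listed interval longer than the probe's 60 bases, as for 27 of the 73 probes, was taken as the files give it.
Actc1: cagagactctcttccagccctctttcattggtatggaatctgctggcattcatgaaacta
Acta1: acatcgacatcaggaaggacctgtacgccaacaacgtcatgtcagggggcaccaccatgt
Tnnt2: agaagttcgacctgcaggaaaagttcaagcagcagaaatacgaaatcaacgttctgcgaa

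Next are the probes of Myh8 (chr11:67389989-67390048) and Myh1 (chr11:67306002-67306061), both on the plus strand. Capitals mark the 19 bases they have in common. This was the only pair of probes of different sarcomere genes that shared at least 14 bases, and these were the only 2 probes on the array that held the stretch.
Myh8: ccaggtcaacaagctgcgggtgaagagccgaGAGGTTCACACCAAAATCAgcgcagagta
Myh1: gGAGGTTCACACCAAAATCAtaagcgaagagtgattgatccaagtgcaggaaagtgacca

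Shown last are both Myl4 probes (chr11:104693162-104693532 and chr11:104693149-104693519, plus strand) and both Myl3 probes (chr9:110466830-110467124 and chr9:110461523-110461582, plus strand). Capitals mark the 47 bases in which the Myl4 probes overlap. The Myl3 probes share no such stretch and lie apart in the gene.
Myl4, A_51_P413130: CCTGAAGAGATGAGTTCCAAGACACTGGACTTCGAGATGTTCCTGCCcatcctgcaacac
Myl4, A_52_P544523: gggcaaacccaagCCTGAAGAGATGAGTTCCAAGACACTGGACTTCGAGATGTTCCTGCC
Myl3, A_51_P177210: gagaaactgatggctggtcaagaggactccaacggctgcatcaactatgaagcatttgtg
Myl3, A_51_P434910: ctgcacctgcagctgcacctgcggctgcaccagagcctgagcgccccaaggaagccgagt

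Of the 73 sarcomere probes, 30 (41.1%) were well above background on 4 or more of the 8 arrays, the rule for calling a probe detected, beside 47.4% of all 41174 probes. Of the remainder, 31 were above background on 0 arrays and 12 on 1 to 3 arrays, while 22 of the detected probes were above it on all 8. The 30 detected probes belonged to 24 of the 39 genes, beside 14675 of the 27962 gene names on the array. A gene counted as detected with any 1 of its probes. Detection reached 8 of 8 troponin genes, 2 of 2 actins, 5 of 7 myosin heavy chains, 2 of 6 light chains, 2 of 3 myosin binding proteins, 1 of 2 giant proteins, 0 of 2 M-line genes, 2 of 6 Z-disc genes, and 2 of 3 genes of the group of creatine kinase and calsequestrins. Probes of the same gene often differed: of 19 genes with more than 1 probe, 11 had detected and undetected ones, 3 had all detected and 5 none.

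**Figure D1:**
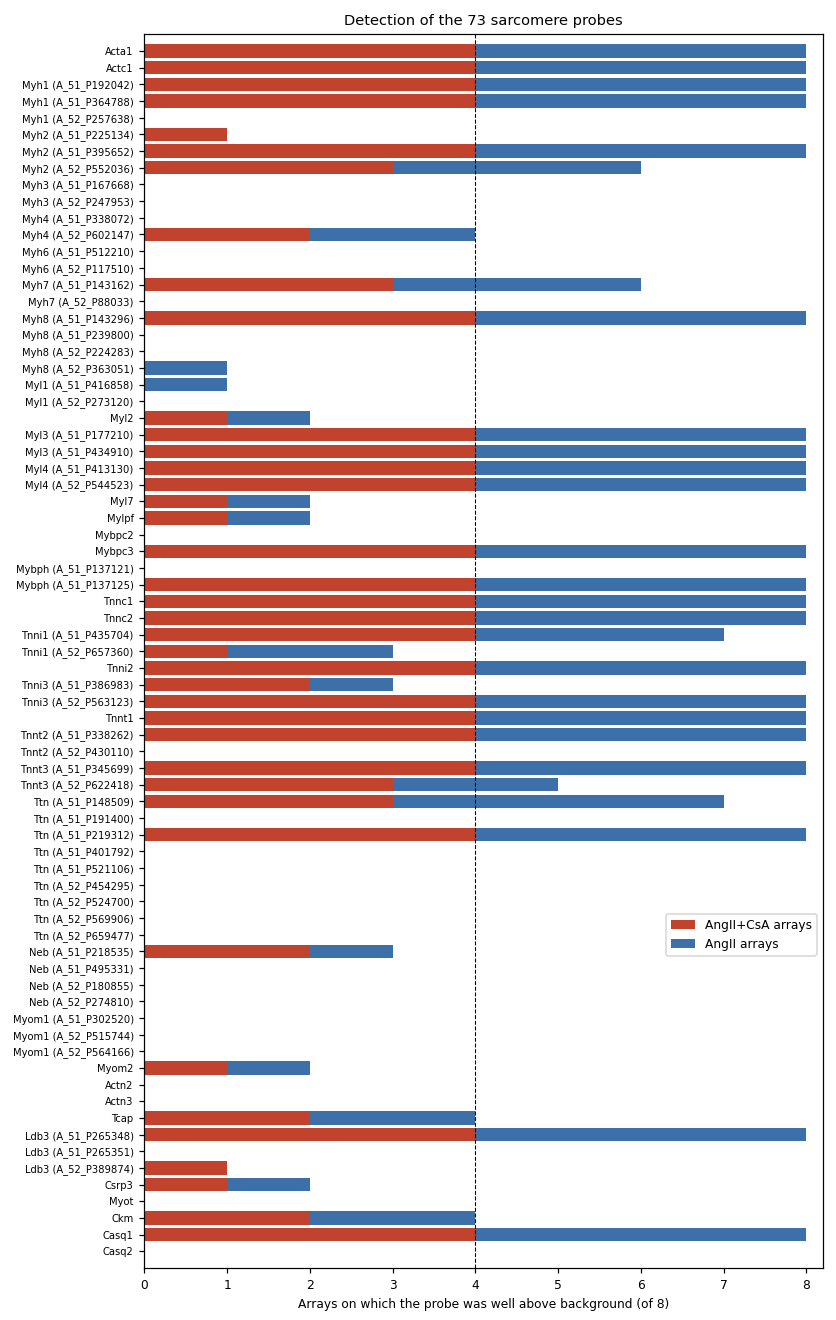
Number of arrays (horizontal axis, of 8) on which each of the 73 sarcomere probes (vertical axis) was well above background, split into AngII+CsA arrays and AngII arrays; the dashed line marks 4 arrays. All troponin genes have a bar that reaches the line, whereas the M-line genes and 7 of the 9 Ttn probes fall short of it.

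Detection was nearly the same with and without cyclosporin. Out of 292 readings in each group, 122 were above background in AngII+CsA cultures and 120 in AngII cultures. For 63 of the 73 probes the number of arrays above background was the same in both groups, and for the other 10 it differed by 1 array. The groups were close over the whole array too. Of all spots, 43.7% to 51.7% were well above background on AngII+CsA arrays and 42.8% to 51.3% on AngII arrays.

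Both sarcomeric actins were measured on all 8 arrays. Actc1, the alpha-actin of cardiac thin filaments, read 4.71, 5.94, 6.33 and 6.60 in AngII+CsA cultures 1 to 4, against 4.35, 5.46, 6.18 and 6.61 in AngII cultures 1 to 4. Both cultures numbered 1 were below all others, and the groups overlapped. It averaged 5.90 ± 0.84 with AngII+CsA and 5.65 ± 0.99 with AngII (SD, n = 4 each), a difference of 0.25 with a standard error of 0.53 (adjusted p = 0.9999, limma). With the replicate number as a block its 95% interval was -0.05 to 0.55 (adjusted p = 0.926).

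Acta1, the skeletal alpha-actin, read -0.82, 1.004, 0.88 and 1.35 in AngII+CsA cultures 1 to 4, against -1.57, 0.67, 0.95 and 1.13 in AngII cultures 1 to 4. Again the cultures numbered 1 were lowest in both groups, and the remaining 6 arrays lay between 0.67 and 1.35. The difference was 0.31, with a blocked interval of -0.05 to 0.68 (adjusted p = 0.926). Alpha-actin genes are similar in sequence, and signal that a probe may take from the transcript of a paralog was not tested.

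Among the myosin heavy chains, the motor proteins of the thick filament, 7 of 18 probes and 5 of 7 genes were detected. Myh3 (embryonic) and Myh6 (the alpha chain of heart) were above background on 0 arrays with both of their probes. Myh8, the perinatal chain, read 3.92, 2.02, 3.11 and 1.41 in AngII+CsA cultures 1 to 4, against 5.08, 2.96, 2.59 and 1.91 in AngII cultures 1 to 4 with probe A_51_P143296. The cultures numbered 1 were highest in both groups. The difference was -0.52, with a blocked interval of -1.18 to 0.14 (adjusted p = 0.926).

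Myh1, the fast IIx chain of adult muscle, read 3.02, 1.07, 1.66 and 0.47 in AngII+CsA cultures 1 to 4, against 4.21, 2.07, 1.33 and 0.77 in AngII cultures 1 to 4 with probe A_51_P192042. Within each group the order of the cultures was the same as for Myh8, with number 1 highest and number 4 lowest. Its difference was -0.54, with a blocked interval of -1.16 to 0.08 (adjusted p = 0.926). In both of these probes AngII+CsA was the lower member in pairs 1, 2 and 4 and the higher one in pair 3.

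The other probes of these genes read differently. Myh8 had 3 more probes, above background on 0, 0 and 1 arrays, the 1 array being AngII culture 1 (A_52_P363051, at -2.57). Myh1 probe A_51_P364788 was above background on all 8 arrays but varied little, at -1.85 to -1.47 in AngII+CsA cultures and -1.81 to -1.48 in AngII cultures. The remaining Myh1 probe, A_52_P257638, was above background on 0 arrays, was highest in AngII culture 1 (-3.71), and is mapped by the files to the minus strand, opposite to the other Myh1 probes. High readings in both cultures numbered 1 thus came from 1 probe of each gene, the pair with the shared 19 bases, and which transcript these probes measured was not tested.

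**Figure D2:**
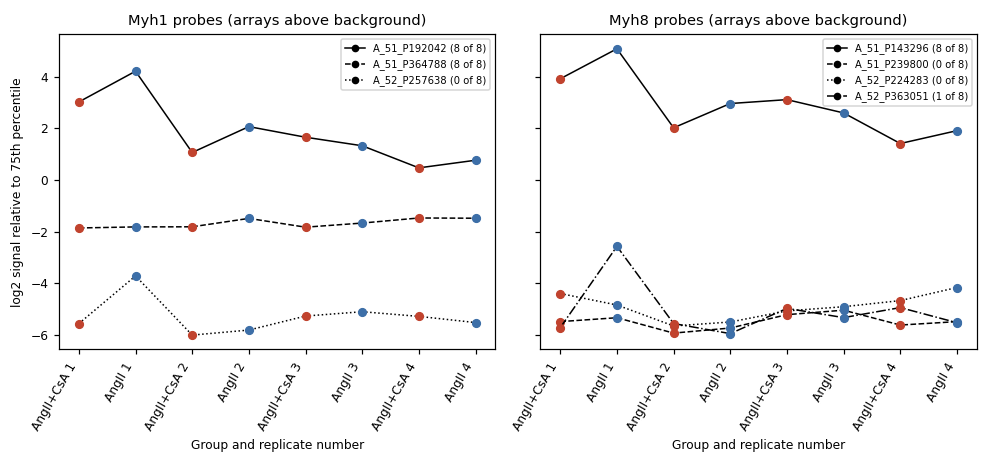
Log2 signal relative to the 75th percentile of the array (vertical axis) of every Myh1 probe (left) and Myh8 probe (right) on the 8 arrays, with AngII+CsA arrays in red and AngII arrays in blue; lines join the points of 1 probe and mark no order of cultures. The solid lines, probes A_51_P192042 and A_51_P143296, are highest in the cultures numbered 1 (3.02 and 4.21 for Myh1), whereas Myh1 probe A_51_P364788 stays between -1.85 and -1.47 and the other probes are above background on 0 or 1 arrays.

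Of the further heavy chains, Myh2, the fast IIa chain, had 2 detected probes. Probe A_51_P395652 read -1.79, -1.87, -0.25 and -1.98 in AngII+CsA cultures 1 to 4, against 0.19, -1.003, -1.06 and -1.34 in AngII cultures 1 to 4, a difference of -0.67, the most negative of all detected sarcomere probes. In pair 3 it was higher with AngII+CsA, and the blocked interval of -1.64 to 0.31 included 0. Probe A_52_P552036, above background on 6 arrays, differed by -0.38.

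Myh4, the fast IIb chain, was detected with 1 of 2 probes, on 4 arrays. It read -4.70, -3.49, -3.89 and -3.06 in AngII+CsA cultures 1 to 4, against -5.37, -3.30, -3.66 and -3.14 in AngII cultures 1 to 4, lowest in the cultures numbered 1, and differed by 0.08. Myh7, the beta chain of slow muscle and heart, was above background on 6 arrays with probe A_51_P143162 and differed by -0.22. Its other probe overlaps the first in 55 bases and was above background on 0 arrays.

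Light chains wrap the neck of the myosin head, and 2 of 6 genes were detected. Myl4, the essential light chain of the atria and of embryonic muscle, read 2.36, 1.74, 1.79 and 1.60 in AngII+CsA cultures 1 to 4, against 2.36, 1.70, 1.82 and 1.51 in AngII cultures 1 to 4 with probe A_51_P413130. The second probe, A_52_P544523, read 2.49, 1.47, 1.64 and 1.31 in AngII+CsA cultures 1 to 4, against 2.42, 1.47, 1.65 and 0.93 in AngII cultures 1 to 4. In both probes the cultures numbered 1 were the highest of each group, and the groups overlapped throughout. The differences were 0.03 and 0.11, with blocked intervals of -0.21 to 0.27 and -0.17 to 0.39.

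Myl3, the essential light chain of ventricle and slow muscle, gave different results with its 2 probes. Probe A_51_P177210 read -1.33, -1.49, -1.40 and -1.93 in AngII+CsA cultures 1 to 4, against -0.24, -0.67, -1.18 and -1.46 in AngII cultures 1 to 4. This was the only detected sarcomere probe that was lower with AngII+CsA in 4 of 4 pairs (1 of 30, or 3.33%, beside 9.45% of all tested probes), and the groups overlapped. The difference was -0.65, the within-pair values were -1.09, -0.82, -0.22 and -0.47, and the blocked p was 0.0064 before and 0.926 after adjustment over all probes (limma).

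Probe A_51_P434910 of Myl3 read 0.34, 0.66, 0.66 and 1.27 in AngII+CsA cultures 1 to 4, against 0.54, 0.69, 0.77 and 1.18 in AngII cultures 1 to 4, a difference of -0.06. Its blocked interval was -0.32 to 0.20. That of the first probe was -1.04 to -0.26, so the intervals overlap, and the difference between the probes was not tested. The undetected light chains were Myl1 of fast muscle (above background on 1 and 0 arrays with its 2 probes), Myl2 of the ventricle, Myl7 of the atria and Mylpf of fast muscle (2 arrays each).

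Myosin binding proteins lie along the thick filament. Mybpc3, the cardiac form of protein C, averaged -1.14 ± 0.29 with AngII+CsA and -0.996 ± 0.15 with AngII (SD, n = 4 each), a difference of -0.15. Mybph, protein H, averaged -1.32 ± 0.33 with AngII+CsA and -1.17 ± 0.33 with AngII (SD, n = 4 each) with 1 of its 2 probes and differed by -0.15, while its other probe was above background on 0 arrays. Mybpc2, the fast skeletal form of protein C, was above background on 0 arrays. Neither detected gene passed the test in either fit.

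Troponin is the calcium switch of the thin filament, and all 8 of its genes were detected. Tnnt2, the cardiac form of the tropomyosin-binding subunit T, read -2.90, 0.14, 1.46 and 0.76 in AngII+CsA cultures 1 to 4, against -2.11, 0.12, 1.39 and 1.11 in AngII cultures 1 to 4. No other sarcomere probe varied as much between cultures: its means over the replicate numbers spanned 3.93 log2 units, with the cultures numbered 1 lowest and those numbered 3 highest. The difference between groups was -0.26, and the blocked interval was -0.67 to 0.14 (adjusted p = 0.929). A second Tnnt2 probe was above background on 0 arrays.

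Tnnt3, the fast form, gave opposite signs with its 2 probes. Probe A_51_P345699 read -1.54, -1.74, -1.84 and -2.23 in AngII+CsA cultures 1 to 4, against -0.36, -1.72, -2.11 and -0.79 in AngII cultures 1 to 4, a difference of -0.59. Probe A_52_P622418, above background on 5 arrays, differed by 0.26. Neither passed the test, and both blocked intervals included 0. Tnnt1, the slow form, averaged -1.93 ± 0.29 with AngII+CsA and -1.95 ± 0.29 with AngII (SD, n = 4 each), a difference of 0.02.

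For the calcium-binding subunit C, Tnnc1 (slow and cardiac) averaged -0.09 ± 0.56 with AngII+CsA and 0.14 ± 0.34 with AngII (SD, n = 4 each), and Tnnc2 (fast) averaged -0.08 ± 0.30 with AngII+CsA and 0.07 ± 0.44 with AngII (SD, n = 4 each). These gave differences of -0.23 and -0.15. Among the inhibitory subunits, Tnni3, the cardiac form, read -2.66, -1.89, -1.39 and -1.37 in AngII+CsA cultures 1 to 4, against -2.61, -1.75, -1.30 and -1.47 in AngII cultures 1 to 4. It was lower in the cultures numbered 1 than in all others, and differed between groups by -0.04. Tnni1, the slow form, differed by 0.32, the most positive of the detected sarcomere probes, with pair values from -0.85 to 1.38. Tnni2, the fast form, differed by -0.10. The second probes of Tnni1 and Tnni3 were each above background on 3 arrays.

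Of the giant proteins, Ttn (titin, the elastic filament) was detected with 2 of 9 probes and Neb (nebulin, the thin filament ruler of skeletal muscle) with 0 of 4. Ttn probe A_51_P219312 averaged -1.46 ± 0.28 with AngII+CsA and -1.27 ± 0.29 with AngII (SD, n = 4 each), a difference of -0.19, and probe A_51_P148509 differed by -0.06. The 7 other Ttn probes were above background on 0 arrays, so the gene is represented by a minority of its probes. One Neb probe was above background on 3 arrays and the other 3 on 0.

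M-line proteins, which crosslink thick filaments, were not detected: the 3 probes of Myom1 (myomesin) were above background on 0 arrays and that of Myom2 on 2. Of the Z-disc genes, Tcap (telethonin, which caps titin) was detected on 4 arrays and averaged -3.77 ± 0.87 with AngII+CsA and -3.72 ± 0.96 with AngII (SD, n = 4 each). Ldb3, a PDZ and LIM protein that binds alpha-actinin, averaged -1.33 ± 0.41 with AngII+CsA and -1.32 ± 0.78 with AngII (SD, n = 4 each) with 1 of its 3 probes, the others being above background on 0 and 1 arrays. Their differences were -0.06 and -0.01. Tcap read -4.34, -2.90, -4.68 and -3.18 in AngII+CsA cultures 1 to 4, against -4.21, -2.89, -4.82 and -2.95 in AngII cultures 1 to 4, so that cultures 2 and 4 were high and cultures 1 and 3 low in both groups. The sarcomeric alpha-actinins Actn2 and Actn3 and the Z-disc protein Myot were above background on 0 arrays, and Csrp3, a LIM protein, on 2.

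Ckm, the muscle creatine kinase that buffers ATP, was above background on 4 arrays and averaged -3.78 ± 1.08 with AngII+CsA and -3.28 ± 0.48 with AngII (SD, n = 4 each), a difference of -0.50. Its lowest reading was -5.34, in AngII+CsA culture 3, and its highest -2.86, in AngII culture 4. Casq1, the calcium-storing calsequestrin of skeletal muscle, averaged -1.84 ± 0.32 with AngII+CsA and -1.88 ± 0.27 with AngII (SD, n = 4 each), a difference of 0.04. Its cardiac counterpart Casq2 was above background on 0 arrays.

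**Figure D3:**
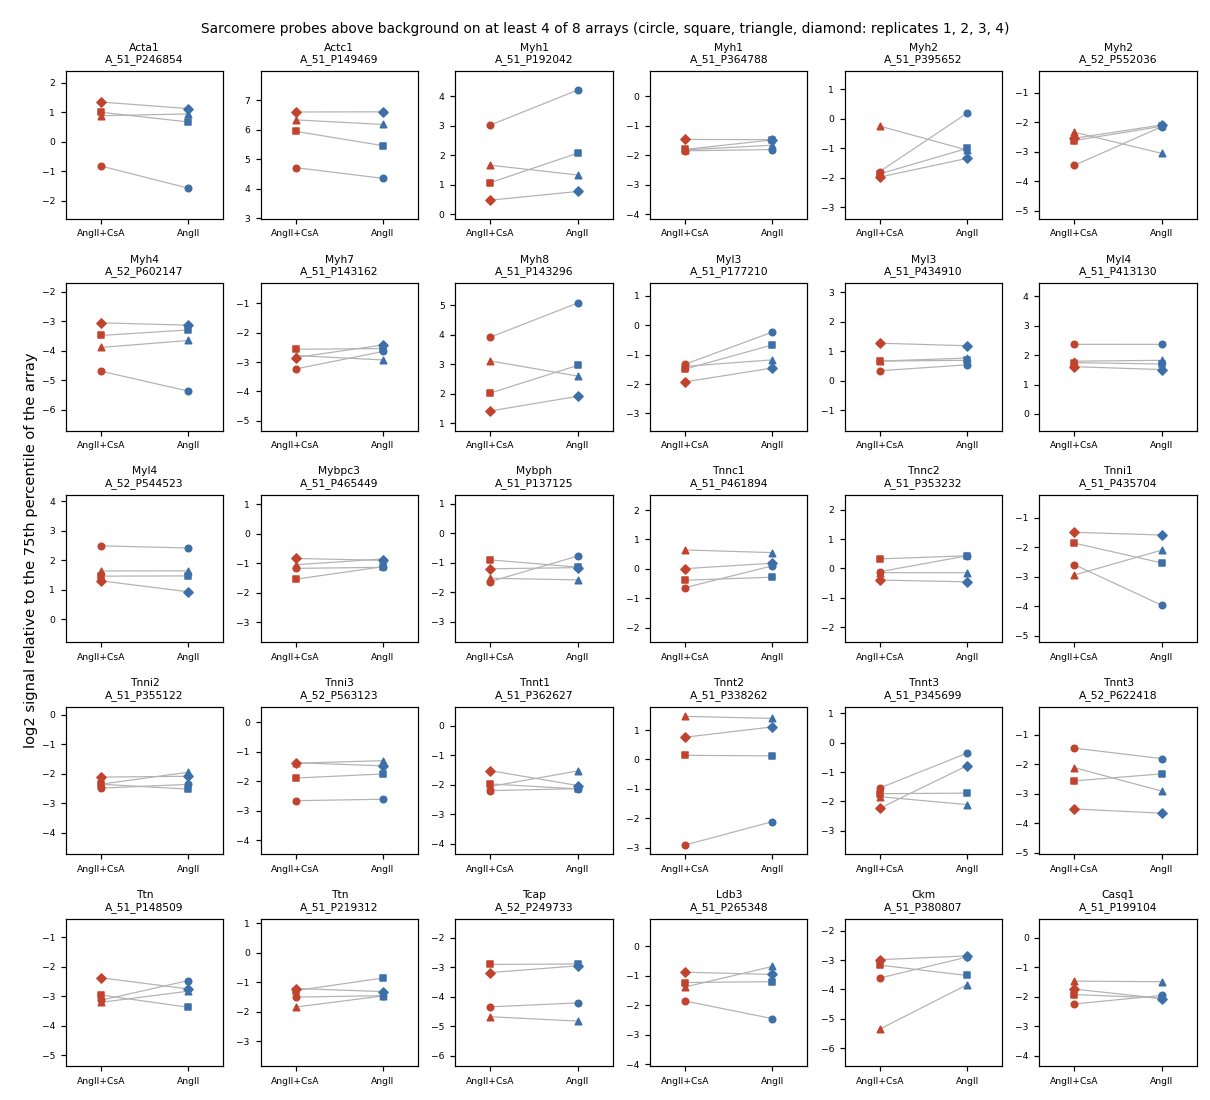
Log2 signal relative to the 75th percentile of the array (vertical axes, all of the same length, each centred on its own data) of the 30 detected sarcomere probes, with AngII+CsA cultures at left in red and AngII cultures at right in blue; grey lines join arrays of the same replicate number. Lines are mostly flat compared with the distances between them, as for Tnnt2, whose numbers span 3.93 units while the groups differ by -0.26.

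Many sarcomere probes differed between replicate numbers. By limma's F test over the 4 numbers, with group in the model, 16 of the 30 detected sarcomere probes (53.3%) passed the adjusted threshold of 0.05, beside 66.6% of the 19529 tested probes. The span of the 4 number means had a median of 0.97 log2 units for the sarcomere probes and 0.92 for all tested probes. Tnnt2 (3.93 units, adjusted p = 0.0011), Myh1 (3.00, 0.0049), Myh8 (2.84, 0.0069), Acta1 (2.44, 0.002) and Actc1 (2.07, 0.002) had the widest spans of the 30.

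In the cultures numbered 1, sarcomere probes were the lowest or the highest about as often as all tested probes were. Both arrays of number 1 lay below the other 6 for 7 probes (23.3%, beside 18.7% of all tested probes): Acta1, Actc1, Myh4, 1 of the Myl3 probes, Tnni3, Tnnt2 and Ldb3. They lay above the other 6 for 5 probes (16.7%, beside 18.5%): Myh1, Myh8, both Myl4 probes and Tnnt3. Actc1 averaged 4.53 in the cultures numbered 1 and 6.19 in the others, whereas Myh1 averaged 3.61 in the cultures numbered 1 and 1.22 in the others.

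With both arrays of number 1 left out, 9 of the 16 probes still passed the F test. In that fit 11 of all 30 sarcomere probes passed, beside 11956 of the 19529 tested probes. The call was lost by Acta1 (adjusted p = 0.111), Myh1 (0.0834), Myh8 (0.0737), both Myl4 probes (0.215 and 0.0659), Ldb3 (0.482) and Ckm (0.0552). Over the 3 remaining numbers the span was 0.40 for Acta1, 0.95 for Myh1, 1.19 for Myh8, 0.25 and 0.52 for the Myl4 probes and 0.30 for Ldb3. Number 1 was the lowest or highest for each of these probes, so the span had to be narrower without it. That of Ckm was 1.67 with and without number 1, and that of Tnnt2, which still passed, was 1.30. Each such fit also has fewer residual degrees of freedom, 2 in place of 3. Tcap and Myh4 were above background on only 4 arrays. Their readings in cultures 1 and 3 of both groups lay below the lowest reading well above background on those arrays. Calls of these probes thus rest on readings near background. Actc1, Tnnt2, Tnni3, Tcap and Myh4 passed with each of the 4 numbers left out in turn. The others lost the call at least once: without number 2, Tnnc1 (0.0687) and Tnnc2 (0.136); without number 3, Tnnc1 (0.207) and Ckm (0.365); and without number 4, Ckm (0.0611), Ldb3 (0.0536), 1 Myl3 probe (0.407), 1 Myl4 probe (0.0589), Tnnc2 (0.183) and 1 Tnnt3 probe (0.0659).

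**Figure D4:**
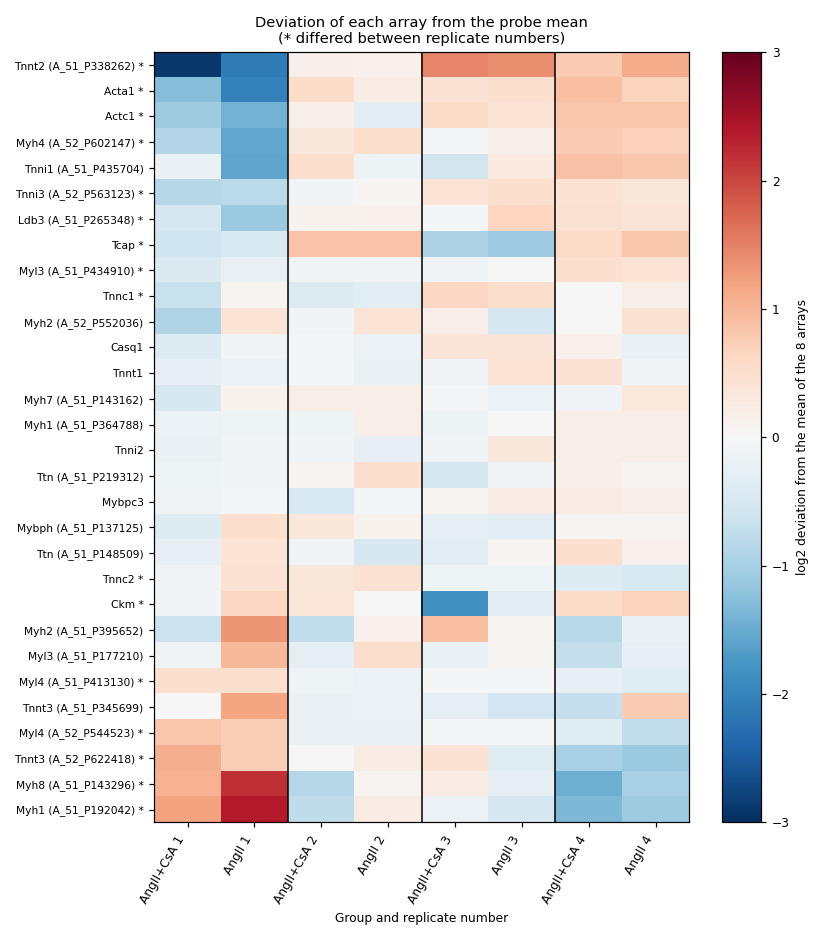
Deviation of each array from the mean of the 8 arrays (colour, log2 units, red higher) for the 30 detected sarcomere probes, with the AngII+CsA array left of the AngII array within each replicate number; an asterisk marks the 16 probes that differed between numbers by the F test. Tnnt2, Acta1 and Actc1 are lowest, and Myh1 and Myh8 highest, in both arrays of number 1.

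Marker genes of several cell types moved with the replicate numbers too. The summed linear level of the smooth muscle markers ranged from 249.5 to 1274 times the 75th percentile in AngII+CsA cultures and from 318.3 to 1447 in AngII cultures, lowest in the cultures numbered 1 of each group. The summed adventitial fibroblast markers ranged from 46.2 to 116 in AngII+CsA cultures and from 49.7 to 140.2 in AngII cultures, highest in those numbered 1. By the brightest probe of each gene, 7 of 9 tested smooth muscle markers averaged lower in the cultures numbered 1 than in the others, as Actc1 and Acta1 did, and Cald1 and Myh11 averaged higher. The lower average was not particular to smooth muscle markers. It was also seen for 7 of 7 tested skeletal myogenic, 7 of 8 cardiac, 3 of 4 endothelial, 2 of 2 macrophage and 2 of 2 adipocyte markers. Acta2 (probe A_52_P420504) averaged 5.59 in the cultures numbered 1 and 8.14 in the others, and Myh11 0.53 in the cultures numbered 1 and 0.35 in the others. Of 6 tested fibroblast markers, Pdgfra, Lum, Col14a1 and Dpep1 averaged higher in the cultures numbered 1, as Myh1 and Myh8 did, and Clec3b and Pi16 lower. Skeletal myogenic markers summed to 2.45 to 3.58 in AngII+CsA cultures and 2.71 to 4.36 in AngII cultures, and cardiac markers to 5.81 to 10.8 in AngII+CsA cultures and 5.51 to 12.4 in AngII cultures. Endothelial markers summed to 0.63 to 0.86 with AngII+CsA and 0.82 to 1.07 with AngII, macrophage markers to 1.99 to 2.40 with AngII+CsA and 1.71 to 2.47 with AngII, and adipocyte markers to 0.46 to 0.71 with AngII+CsA and 0.49 to 0.75 with AngII. The part of these cell types in the sarcomere values was not tested, and replicate number, slide and scan cannot be told apart.

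The comparison of AngII+CsA with AngII concerned the effect of cyclosporin in the presence of angiotensin, and no sarcomere probe passed its test. By limma with Benjamini-Hochberg adjustment over 19529 probes, 0 of the 30 detected sarcomere probes were called with the groups alone (0.0% of all tested probes) and 0 of 30 with the replicate number as a block (0.0102%, or 2 probes, both lower). At an unadjusted p under 0.05, 0 of 30 sarcomere probes stood in the unblocked fit (0.302% of all tested probes) and 1 of 30, the Myl3 probe A_51_P177210, with the block (3.33%, beside 4.99% of all tested probes). The smallest adjusted p among them was 0.9999 and 0.926. One of the 2 called probes was Rcan1, a calcineurin regulator listed in the files as Dscr1, at 2.75 ± 0.69 with AngII+CsA and 5.01 ± 0.61 with AngII (SD, n = 4 each) and a difference of -2.26 (adjusted p = 0.0214 with the block).

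Differences of the sarcomere probes ran from -0.67 to 0.32, and 25 of 30 (83.3%) lay within 0.5 log2 units of 0, beside 97.2% of all tested probes. Their median was -0.11, beside -0.02 over all tested probes. Of the 30, 21 differences were negative and 9 positive (70% negative, beside 54.5% of all tested probes); the split was 25 to 5 after normexp background correction (83.3%, beside 51% of all), and 17 to 13 after quantile normalization (56.7%, beside 48.5%) and in the authors' deposited table (56.7%, beside 48%). The medians within pairs 1 to 4 were -0.17, -0.03, -0.02 and 0.04, so the pairs did not share a sign. Over all tested probes they were -0.08, 0.002, -0.02 and -0.01, also lowest in pair 1. 0 probes were higher with AngII+CsA in 4 of 4 pairs (4.98% of all tested probes), and for 0 probes did all AngII+CsA arrays lie below (0.302%) or above (0.0922%) all AngII arrays.

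The blocked 95% intervals bound the differences. For 22 of the 30 probes the interval lay within 1 log2 unit of 0 on both sides, among them both actins, both Myl4 probes and Tnnt2. The other 8 intervals reached beyond 1 unit on at least 1 side. A p above the threshold does not show that the groups were alike. With groups of 4 arrays, their number limits the precision of every value.

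**Figure D5:**
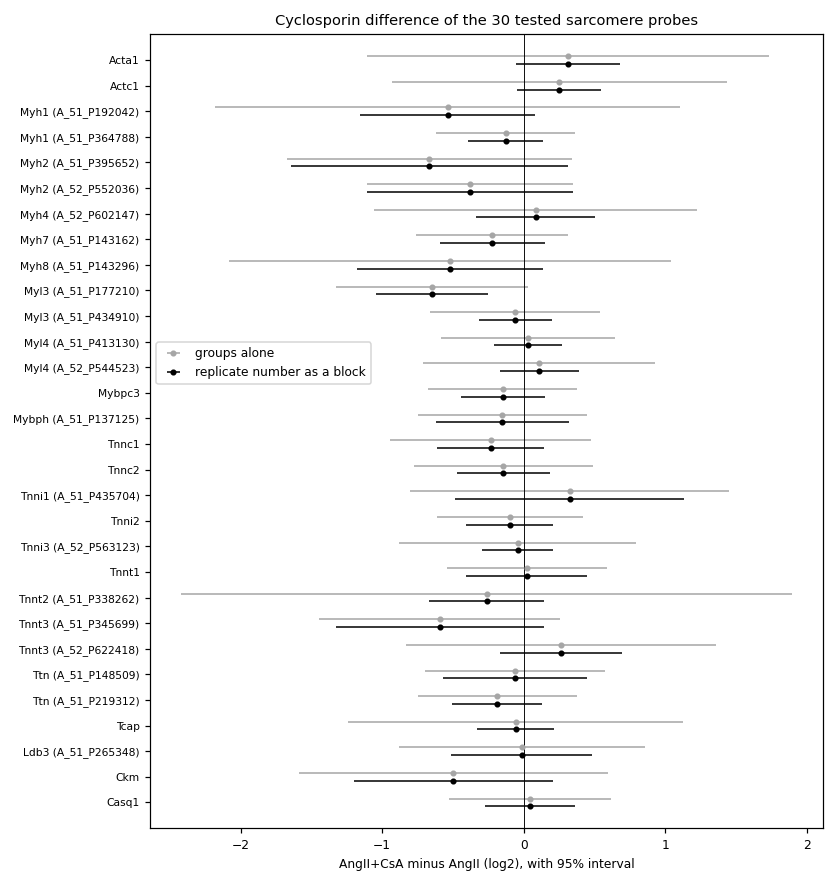
AngII+CsA minus AngII difference of each of the 30 detected sarcomere probes (horizontal axis, log2 units) with its 95% interval, from the fit on the groups alone (grey) and with the replicate number as a block (black). All 30 grey intervals include 0, and so do 29 of the black ones, the exception being the Myl3 probe A_51_P177210.

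Related genes of the contractile machinery gave 0 calls in either fit in each of 4 lists. Of the smooth and non-muscle paralogs, 18 of 21 genes were tested, 9 with negative and 9 with positive differences, at a median of -0.0017. Acta2, the smooth muscle alpha-actin (probe A_52_P420504), averaged 7.51 ± 1.45 with AngII+CsA and 7.50 ± 1.45 with AngII (SD, n = 4 each), Actg2, the smooth muscle gamma-actin, 5.33 ± 0.84 with AngII+CsA and 5.23 ± 1.12 with AngII (SD, n = 4 each), and Myl9, the smooth muscle regulatory light chain, 3.55 ± 1.14 with AngII+CsA and 3.76 ± 0.82 with AngII (SD, n = 4 each). Myh11, the smooth muscle myosin heavy chain, averaged 0.57 ± 0.30 with AngII+CsA and 0.23 ± 0.40 with AngII (SD, n = 4 each). It was higher in 4 of 4 pairs, as were 4.98% of all tested probes (adjusted p = 0.926 with the block, limma). Actn1, the alpha-actinin of smooth and non-muscle cells, differed by 0.36.

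Of the other sarcomere and Z-disc genes, 18 of 31 were tested, 11 with negative and 7 with positive differences, at a median of -0.03. With the brightest detected probe of each gene, the smallest p values there were those of Trim63, a muscle ubiquitin ligase, at -1.15 (above background on 2 AngII+CsA and 4 AngII arrays), and Synpo2l, at -0.24; another Synpo2l probe, A_52_P516312, differed by -0.38. Of 18 genes of excitation-contraction coupling and metabolism, 10 were tested, 8 negative and 2 positive, at a median of -0.07. Atp2a1 and Atp2a2, calcium pumps of the sarcoplasmic reticulum and the genes of smallest p there, differed by -0.56 and -0.38. Both were lower with AngII+CsA in 4 of 4 pairs, as were 9.45% of all tested probes.

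Of 25 muscle transcription factors, 18 were tested, 15 with negative and 3 with positive differences, at a median of -0.15. Mkl2, a coactivator of serum response factor, differed by -0.44, and Nkx2-5, a cardiac homeodomain factor, by -0.45, both lower in 4 of 4 pairs. Of all tested probes, 9.45% were lower in 4 of 4 pairs and 54.5% had negative differences. The genes named were those of smallest p in their list, a choice that favours pairs of the same sign. The adjusted p with the block was 0.926 for Trim63, Synpo2l, Atp2a1, Atp2a2, Mkl2 and Nkx2-5.

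The promoters of the sarcomeric actins Actc1 and Acta1 carry a CArG box, the element bound by serum response factor. Shown are the 120 bases before the start site in RefSeq (build GRCm38.p6, minus strand), chr2:114052876-114052995 for Actc1 and chr8:123894776-123894895 for Acta1, with the CArG box in capitals. Its first base lies 47 bases before the start site of Actc1 and 73 before that of Acta1.
Actc1 promoter: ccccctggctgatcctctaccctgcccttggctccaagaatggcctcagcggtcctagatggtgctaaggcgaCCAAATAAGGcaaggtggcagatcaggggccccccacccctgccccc
Acta1 promoter: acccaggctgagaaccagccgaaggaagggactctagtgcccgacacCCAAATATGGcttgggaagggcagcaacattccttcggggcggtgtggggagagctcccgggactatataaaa

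RefSeq windows from 250 bases before to 50 after a start site were found for 33 of the 40 genes, 32 of them with a probe. A CArG box on either strand stood in 5 of 21 detected genes (Acta1, Actc1, Ldb3, Myh4 and Myl3), in 2 of 11 undetected ones (Myl7 and Myom1) and in 1.81% of 27025 genes. MEF2 sites stood in 5 of 21, 1 of 11 and 3.70%, and TATAAA in 8 of 21, 4 of 11 and 15.7%. The NFAT core GGAAA, searched on both strands, stood in 12 of 21 detected genes, 6 of 11 undetected ones and 64.4% of all. These matches describe letters in a window and not binding. Each of the 5 detected genes with a CArG box had a probe lowest in the cultures numbered 1, as were 18.7% of all tested probes. The other detected Myl3 probe, A_51_P177210, went the other way, at -0.78 in the cultures numbered 1 and -1.35 in the others. Myh4 read -4.70 and -5.37 in the cultures numbered 1, below the lowest readings well above background on those arrays (-3.42 and -3.31). Tnnt2 and Tnni3, also lowest in the cultures numbered 1, had 0 CArG boxes in their windows. A relation between the box and the levels was not tested.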

How the data were processed

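Total RNA of 8 cultures was hybridised to one-colour Agilent arrays. Per the labels' protocols, RNA was amplified with T7 polymerase and labelled with Cy3. The array design is 014868, per the file headers, and spots were read by Feature Extraction, the Agilent software, in version 9.5.3.1 with its protocol GE1-v5_95_Feb07, with probe positions in build mm7. The deposited array files give each spot's intensity on a linear scale, as processed (background-subtracted by that software), mean and background signal, with flags that mark spots as outlying, as saturated or as well above background. The authors' deposited value table holds log2 values for these 8 arrays. Its columns ranked the probes as their own arrays did and had medians of 3.01. Its normalization is not stated, and it served as an alternative.

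Each processed signal was divided by its array's 75th percentile and taken to log2. Control and outlier spots were left out, and spots of a probe were averaged. Probes well above background on at least 4 of 8 arrays, chosen without regard to group, were tested two-sided with lmFit and eBayes of limma 3.58.1 (R 4.3.3) on all 8 arrays. P-values were adjusted by Benjamini-Hochberg over 19529 probes, at a threshold of 0.05. Group was the only term of the main model, and a second model had the replicate number as a block. Both groups have cultures labelled 1 to 4, and same-numbered arrays share a slide and a scan (4 slides). Over all detected probes, same-numbered arrays deviated together from their group means (correlation 0.70 to 0.86, against -0.78 to 0.28 for other pairs of arrays). Subtracting the group mean itself favours negative values for the other pairs. Over the 30 detected sarcomere probes the ranges overlapped, at 0.42 to 0.91 against -0.87 to 0.65. The number is treated as a pairing. The p-values measure the spread between cultures, which the labels call independent without saying whether animals were shared. An F test over the 4 number coefficients gave the spread between numbers.

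Every listed sarcomere gene is accounted for. From each further gene list, up to 4 genes that passed are named, or, where none did, the 2 of smallest p, and Acta2, Actg2, Myh11, Myl9, Actn1 and Rcan1 are named in any case, each with its brightest detected probe. Members and lists were chosen with earlier results of these data known. Summed marker levels add the linear values of the brightest probe of each marker, detected or not. Symbols are those of the array files, updated through a RefSeq gene table of GRCm38.p6, the build of the promoter windows. The fits were tested on simulated data. Alternatives covered background correction, scaling, the authors' table, outlier spots, the filter on dim probes, the variance model, the choice of probe, the block and leaving out arrays.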

Additional observations from a re-analysis of the deposited data

Results flagged for a closer look

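In the 30 detected sarcomere probes, 60 groups of 4 arrays were examined for an array far from the other 3 by Dixon's test (the gap to the nearest array over the whole range), and 4 groups held one. Chance gives such an array in about 1 in 20 groups. Acta1 (A_51_P246854) was lowest in AngII culture 1, at -1.57, below the next by 2.25 log2 units. Myh2 (A_51_P395652) was highest in AngII+CsA culture 3, at -0.25, and Myh2 (A_52_P552036) was lowest in AngII culture 3, at -3.05. Myh1 (A_51_P364788) was highest in AngII+CsA culture 4, at -1.47, with a gap of 0.34.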

How the results depend on the processing

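No setting gave a called sarcomere probe for AngII+CsA against AngII. Over 29 other settings, 854 differences of the 30 detected probes were computed and 0 passed the threshold. The smallest adjusted p was 0.178, with the replicate block and normexp background correction, a fit in which 11 of 30 sarcomere probes (36.7%) had an unadjusted p under 0.05, beside 4914 of 19529 probes (25.2%), and 25 of 30 differences were negative. With the block and without replicate 3, 8 of 30 (26.7%) did, beside 5.59% of all tested probes. The sign of the difference was the same in every setting for 10 of the 30 probes. The median difference of the sarcomere probes lay between -0.20 and -0.06 over all settings, with -0.11 in the main setting and with the replicate block. With the replicate block the count of called sarcomere probes stayed 0, and the pairing changed no call among them. With the number as a random block it was 0 of 30 too.

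Between replicate numbers, 16 of 30 sarcomere probes passed the F test, beside 66.6% of all tested probes. With no filter on dim probes, which adds 43 mostly undetected probes, 28 of 73 did, beside 21920 of 41173. Leaving out each number in turn gave 10 to 16 of 30, beside 8194 to 11956 of all 19529 tested probes. Detection of 30 probes changed to 49 with the flag for a signal that is positive and significant, to 42 with 1 array required and to 22 with all 8 required. Without replicate 1, an alternative chosen after seeing the data, 32 probes were detected on at least 3 of 6 arrays.

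Groups of 4 arrays limit all values, and probes near background, among them Myh4, Tcap and Ckm, have the least certain levels. Probe sequences were not matched to transcripts, so signal from paralogs, as between the actins or the heavy chains of chromosome 11, cannot be told apart from the named gene.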
